A study of Homo sapiens with 32 samples.

Results

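The clustered canonical histone genes are the genes of the H1, H2A, H2B, H3 and H4 proteins that package newly made DNA, and their changes were followed in 2 human liver tumour lines after SAHA or an HDAC2 siRNA. Members were chosen by name: every probe whose gene symbol on the array starts with HIST1H, HIST2H, HIST3H or HIST4H. There were 65 such probes, for 62 gene symbols, among 18402 symbols and 24526 probes on the array. A probe was tested if its detection p-value was under 0.05 on at least 4 of 32 arrays, which held for 39 histone probes of 37 symbols among 16121 probes of the whole table. The tested probes were 2 for H1, 9 for H2A, 14 for H2B, 8 for H3 and 6 for H4. Of the other 26, 14 were detected on no array and none on more than 3. HIST1H3B, detected on 4 arrays, lay just inside this limit, and HIST1H4A, detected on 3, lay just outside it.

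Huh7 is a hepatocellular carcinoma line and HepG2 a hepatoblastoma line, per the labels. The 8 groups of 4 arrays each were Huh7 with SAHA and Huh7 with DMSO, HepG2 with SAHA and HepG2 with DMSO, Huh7 with HDAC2 siRNA and Huh7 with scrambled siRNA, and HepG2 with HDAC2 siRNA and HepG2 with scrambled siRNA. SAHA (vorinostat) is a small molecule that inhibits several histone deacetylases, DMSO is its solvent, HDAC2 is one of the deacetylases, and a scrambled siRNA has no intended target. Neither the SAHA dose, nor how long cells were exposed, nor the sequence of the siRNA is known here. Nothing in the labels tells whether arrays of a group are separate cultures, and p-values therefore measure only the spread between arrays. Each line stands for itself only.

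Most clustered histone genes are expressed when DNA is replicated. They lie in large groups on chromosomes 6 and 1, have no introns, and give mRNAs that end in a stem-loop bound by the protein SLBP and not in a poly(A) tail. Some of them, HIST1H2BD, HIST2H2BE, HIST1H2BK, HIST1H2AC and HIST1H1C among these, are known to give polyadenylated mRNAs as well, above all in cells that have stopped dividing. The labelling kit named in the labels starts cDNA synthesis from poly(A), so mRNAs with and without a poly(A) tail need not be read equally. Which ends the measured transcripts had was not tested. Many H2A and H2B genes are neighbours that share 1 promoter region, read in opposite directions. Probes can bind transcripts of near-identical copies, such as those of HIST2H2AA3 and HIST2H4A, and such copies cannot be told apart here.

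The promoters of 6 genes are shown because their probes carry the changes described below: HIST1H2BG, HIST1H2BD and HIST2H2BE had the largest rises with SAHA in Huh7, HIST1H2BK the largest in HepG2, and HIST1H1C and HIST1H4H are an H1 and an H4 gene among those called higher in all 4 treatment comparisons. This choice was made after the values were seen. Each window runs from 250 bases before to 50 bases after the start of the gene, 5′ to 3′ on the gene's strand, from RefSeq on GRCh38.p14. Capitals mark the octamer ATTTGCAT, CCAAT and TATAAA on either strand; matches that overlap run together. For HIST1H2BD and HIST1H2BK, which have 2 windows each, the first in the table is shown; HIST1H3D has 2 as well, and motifs were searched in the first.
HIST1H2BG, chr6:26216639-26216938, minus strand: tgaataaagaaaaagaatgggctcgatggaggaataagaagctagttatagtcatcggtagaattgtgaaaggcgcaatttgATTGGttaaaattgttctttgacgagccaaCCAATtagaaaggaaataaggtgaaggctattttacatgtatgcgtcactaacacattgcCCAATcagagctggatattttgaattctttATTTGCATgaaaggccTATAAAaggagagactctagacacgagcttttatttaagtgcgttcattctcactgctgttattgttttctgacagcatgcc
HIST1H2BD, chr6:26157871-26158170, plus strand: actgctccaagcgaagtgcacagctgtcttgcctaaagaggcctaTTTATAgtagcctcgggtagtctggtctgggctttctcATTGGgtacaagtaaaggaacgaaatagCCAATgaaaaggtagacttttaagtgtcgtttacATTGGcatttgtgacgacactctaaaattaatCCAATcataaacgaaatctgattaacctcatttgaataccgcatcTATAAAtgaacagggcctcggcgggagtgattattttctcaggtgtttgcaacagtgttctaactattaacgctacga
HIST2H2BE, chr1:149886633-149886932, minus strand: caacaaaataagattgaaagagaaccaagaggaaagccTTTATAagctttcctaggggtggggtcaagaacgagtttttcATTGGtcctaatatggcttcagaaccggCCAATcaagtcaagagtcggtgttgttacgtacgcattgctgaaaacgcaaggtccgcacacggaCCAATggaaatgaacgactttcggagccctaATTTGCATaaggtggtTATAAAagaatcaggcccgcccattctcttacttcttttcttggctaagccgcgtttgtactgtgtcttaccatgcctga
HIST1H2BK, chr6:27146809-27147108, minus strand: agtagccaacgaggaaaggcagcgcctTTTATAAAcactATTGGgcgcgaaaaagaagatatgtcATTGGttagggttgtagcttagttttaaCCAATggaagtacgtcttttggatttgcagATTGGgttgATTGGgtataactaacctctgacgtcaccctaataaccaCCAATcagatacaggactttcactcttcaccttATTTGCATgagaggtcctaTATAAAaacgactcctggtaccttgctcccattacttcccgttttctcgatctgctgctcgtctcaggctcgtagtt
HIST1H1C, chr6:26056421-26056720, minus strand: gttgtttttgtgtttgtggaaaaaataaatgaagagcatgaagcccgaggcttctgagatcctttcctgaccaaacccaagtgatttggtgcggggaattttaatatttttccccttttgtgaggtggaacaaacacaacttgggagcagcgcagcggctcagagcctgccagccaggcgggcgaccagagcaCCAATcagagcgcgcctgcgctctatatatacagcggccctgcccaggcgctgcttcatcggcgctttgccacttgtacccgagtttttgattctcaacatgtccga
HIST1H4H, chr6:26285485-26285784, minus strand: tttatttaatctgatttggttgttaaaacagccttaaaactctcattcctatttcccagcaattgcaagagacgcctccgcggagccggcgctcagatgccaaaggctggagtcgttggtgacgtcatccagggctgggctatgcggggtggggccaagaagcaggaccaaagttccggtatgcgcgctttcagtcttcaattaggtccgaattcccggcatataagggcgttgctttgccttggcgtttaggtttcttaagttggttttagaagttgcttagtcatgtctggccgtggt
RefSeq windows were found for 36 of the 37 tested symbols. The octamer, the letters bound by the transcription factor OCT1 (POU2F1), was present in 10 of 12 H2B windows, 6 of 9 H2A windows, 1 of 8 H3 windows and none of the 2 H1 or 5 H4 windows. The H3 window with the octamer, the first of HIST1H3D, is also the window of the H2A gene HIST1H2AD, and the second window of HIST1H3D held no octamer. The octamer was present in 1.77% of 35116 windows of all genes. CCAAT was found in 31 of the 36 windows, against 34.6% of all windows, and none of the 5 H4 windows held it. TATAAA was found in 24 of the 36, against 11.5% of all windows. Among the 12 H2B genes, HIST1H2BD and HIST3H2BB were those with no octamer in the window. The HIST1H4H window held none of the 3 motifs.

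Of all array facts, those that bear on these probes are few. Between 48.3% and 54.9% of probes were detected on an array, the median signal of an array was 118 to 195 before normalization, and arrays of 1 group correlated at 0.978 to 0.996. The lowest detected log2 signal of an array was 5.22 to 5.55, so histone values near 5 are at background. Of 11 hepatocyte markers, 10 were detected on all 16 arrays of each line. Leukocyte markers had 3 of 5 detected on all HepG2 arrays and 1 of 5 on all Huh7 arrays, with PTPRC detected on no HepG2 array. The target of the siRNA was lowered in both lines: HDAC2 averaged 8.73 ± 0.10 in Huh7 with HDAC2 siRNA and 12.07 ± 0.04 with scrambled siRNA, and 7.92 ± 0.23 in HepG2 with HDAC2 siRNA and 10.97 ± 0.14 with scrambled siRNA (SD, n = 4 arrays each). Each change is given on the log2 scale of the normalized signal, with its standard error (SE) from a limma model of all 32 arrays and a p-value adjusted by Benjamini-Hochberg over 16121 probes. A probe is called higher or lower where this adjusted p is under 0.05.

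SAHA raised most detected histone probes in Huh7. Of 39 probes, 33 were called higher and 2 lower, against 29.1% of all tested probes called higher and 28.4% called lower. The fitted rise was at least 4-fold in 20 of them, a size reached by 2.44% of all tested probes; 4 of the 20 were undetected with DMSO, and for 1 of these, HIST2H2BF, the bound given below is under 4-fold. The median difference of the 39 was 2.22, and that of all tested probes was -0.01; with no background correction the median of the 39 was 0.89. The groups did not overlap for 31 of 39 probes, against 51.8% of all probes. Since a probe seen only with SAHA passes the detection limit through that group, counts over tested probes are descriptions. Without the Huh7 SAHA arrays 33 histone probes still met the limit, and of these 27 were called higher and 2 lower. The 6 that met it only through those arrays were HIST1H2BE, HIST1H3B, HIST1H4B, HIST2H2BF, HIST2H3C and HIST3H2BB. With no detection limit 34 of all 65 were called higher, 2 lower, and their median was 0.53. The median of all probes was then -0.004, and the share of them called was not counted. Of the 7 probes detected on all 32 arrays, 6 were called higher and 1 lower, with a median of 3.27. The shares of all probes called were not counted for this limit, nor for the limit without the Huh7 SAHA arrays.

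All types took part. Called higher were 1 of 2 H1 probes, 7 of 9 H2A probes, 13 of 14 H2B probes, 8 of 8 H3 probes and 4 of 6 H4 probes. By cluster, 24 of 30 HIST1 probes were called higher and 2 lower, as were 7 of 7 HIST2 probes and 2 of 2 HIST3 probes higher. The exceptions were HIST1H2BH and HIST1H4C, called lower, and HIST1H1A, HIST1H2AB, HIST1H2AI and HIST1H4J, which did not pass the test. Of all tested probes 29.1% were called higher. The counts by type and cluster include the 6 probes that met the detection limit only through the Huh7 SAHA arrays, all called higher. They were HIST1H2BE, HIST2H2BF and HIST3H2BB of H2B, HIST1H3B and HIST2H3C of H3, and HIST1H4B of H4.

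**Figure D1:**
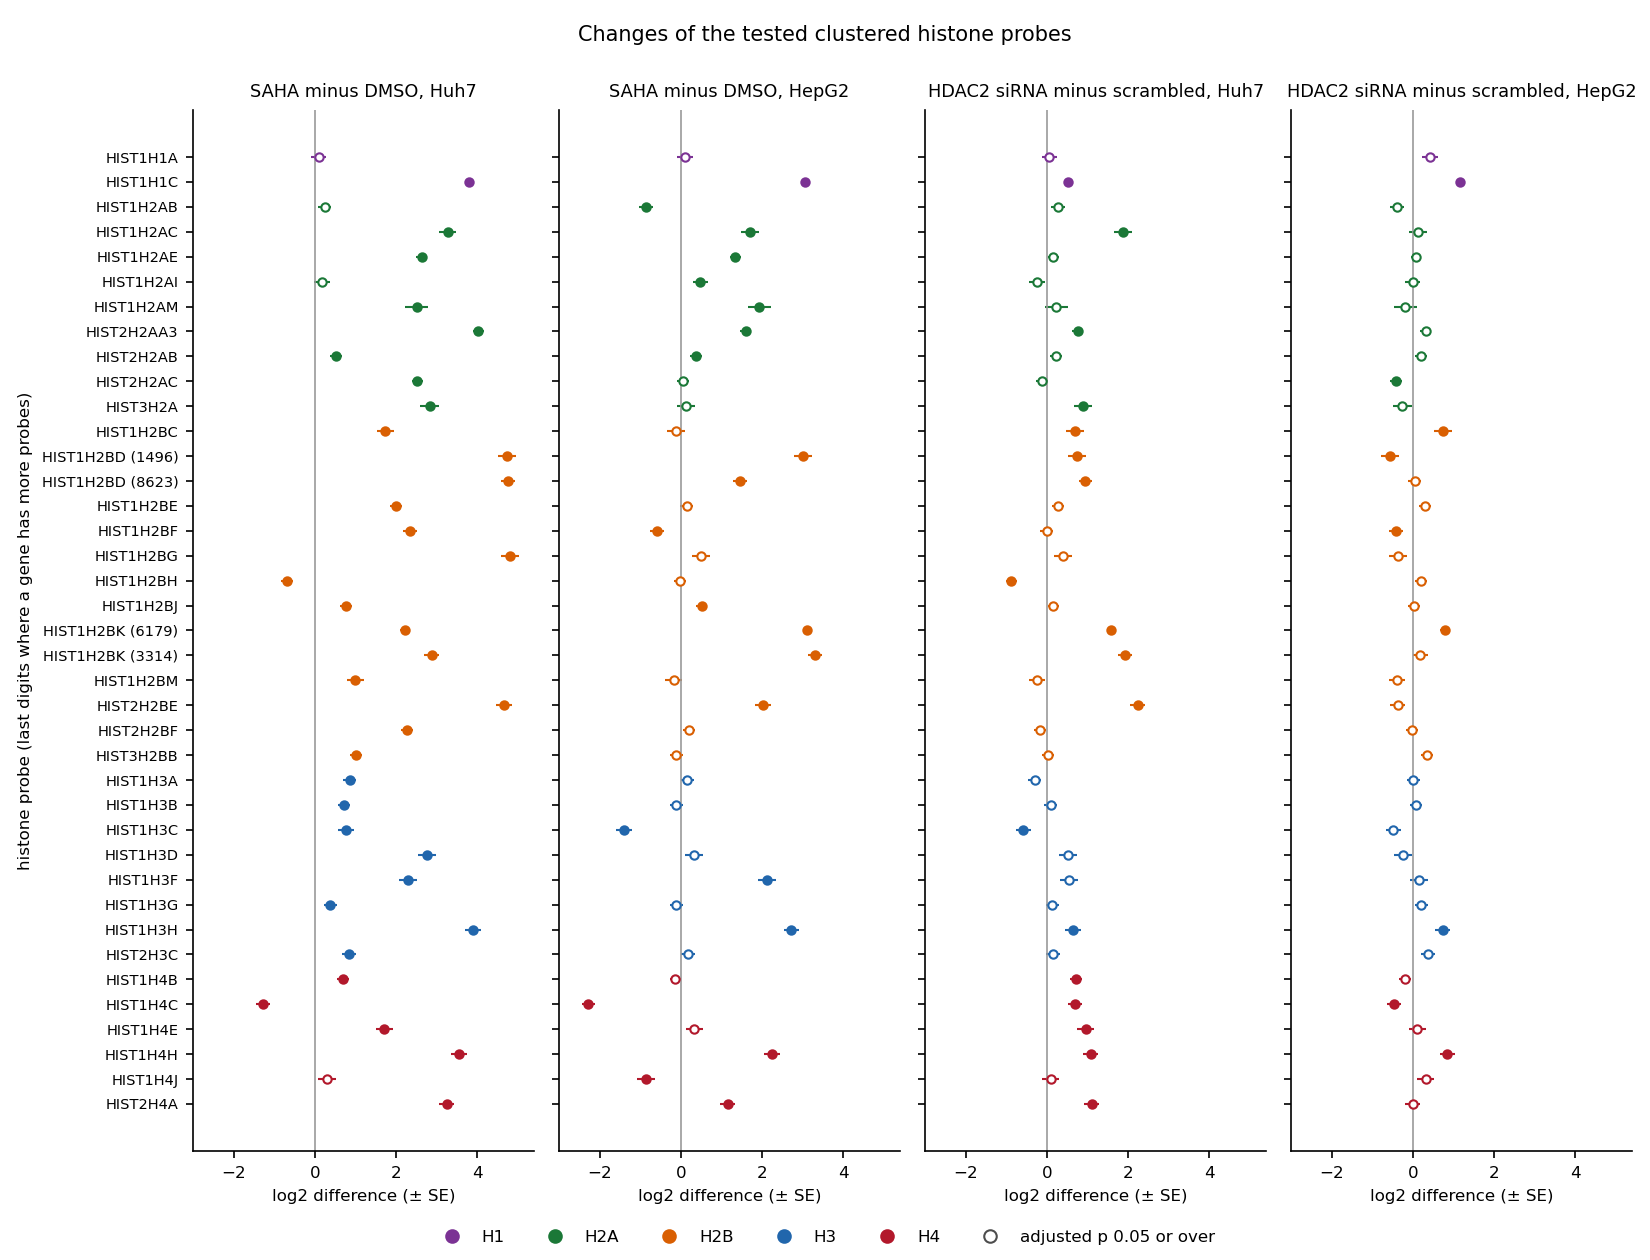
Log2 difference (x axis, ± SE of the limma model) of each of the 39 tested histone probes (y axis, by type) in the 4 treatment comparisons, 4 arrays a group; filled points have an adjusted p under 0.05. With SAHA in Huh7 33 points lie above 0 and pass, up to 4.82, while with HDAC2 siRNA in HepG2 5 do.

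Linker histone H1, which binds the DNA between nucleosomes, was represented by HIST1H1C (H1.2), one of its main somatic subtypes. HIST1H1C had log2 signals of 13.04, 12.85, 12.9 and 12.77 on the SAHA arrays of Huh7, against 9.1, 8.87, 9.12 and 9.21 on the DMSO arrays. Every SAHA array was far above every DMSO array, and the rise was 3.81 (SE 0.10, adjusted p = 2.24e-23). HIST1H1A, the other detected H1 probe, gave a difference of 0.09 (SE 0.19), with 3 of 4 arrays detected in each group.

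Among the H2A genes, whose protein pairs with H2B in the nucleosome, HIST2H2AA3 changed most. Its log2 signals were 12.64, 12.54, 12.73 and 12.63 with SAHA, against 8.7, 8.36, 8.74 and 8.63 with DMSO, a rise of 4.03 (SE 0.14, adjusted p = 5.55e-21). Every SAHA array was above every DMSO array. HIST1H2AC had 10.91, 10.72, 10.34 and 10.17 with SAHA, against 7.05, 7.31, 7.42 and 7.29 with DMSO, and rose by 3.27 (SE 0.22, adjusted p = 5.35e-14). HIST2H2AC had 12.12, 11.95, 12.27 and 11.96 with SAHA, against 9.67, 9.4, 9.48 and 9.64 with DMSO, and rose by 2.53 (SE 0.14, adjusted p = 2.69e-16). None of these groups overlapped.

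HIST3H2A, from the small HIST3 cluster, had 10.42, 10.18, 9.94 and 9.68 with SAHA, against 7.38, 7.2, 7.26 and 7.08 with DMSO (rise 2.83, SE 0.23, adjusted p = 2.95e-12). HIST1H2AE had 7.94, 7.51, 7.39 and 7.37 with SAHA, against 4.74, 5.2, 4.89 and 4.85 with DMSO, where no array detected it. The rise of HIST1H2AE was therefore at least 4.63-fold, the SAHA mean set against the higher of each DMSO array's lowest detected signal and the probe's own (fitted 2.63, SE 0.13, adjusted p = 3.44e-17); the bounds below were found in the same way. HIST1H2AM had 8.01, 8.07, 7.72 and 7.27 with SAHA, against 5.11, 5.27, 5.17 and 5.47 with DMSO, detected on 1 of the 4 DMSO arrays, and rose by 2.51 (SE 0.28, adjusted p = 4.17e-09). HIST2H2AB, undetected with DMSO, rose at least 1.14-fold (adjusted p = 0.00254), with groups that overlapped.

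The H2B genes held the largest rises. HIST1H2BG had 10.51, 10.44, 10.08 and 10.16 with SAHA, against 5.1, 5.86, 5.15 and 5.8 with DMSO, where 2 of 4 arrays detected it. Its rise of 4.82 (SE 0.22, adjusted p = 7.2e-18), or 28.3-fold, was the highest of the 39 probes. HIST1H2BD has 3 probes, of which 1 was detected on no array. Its tested probe ILMN_1758623 had 12.72, 12.63, 12.37 and 12.2 with SAHA, against 7.64, 7.76, 7.63 and 7.86 with DMSO (rise 4.76, SE 0.17, adjusted p = 1.39e-20). The other, ILMN_1651496, had 13.7, 13.33, 13.35 and 13.23 with SAHA, against 8.49, 8.59, 8.88 and 8.73 with DMSO (rise 4.73, SE 0.22, adjusted p = 5.48e-18). The detected probes thus gave nearly equal changes in Huh7.

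HIST2H2BE, from the second cluster, had 10.27, 10.62, 10.31 and 10.59 with SAHA, against 6.01, 5.85, 5.6 and 5.68 with DMSO, and rose by 4.66 (SE 0.19, adjusted p = 5.99e-19). HIST1H2BK has 2 probes. ILMN_1796179 had 14.33, 14.16, 14.23 and 14.23 with SAHA, against 12.02, 11.88, 12.14 and 12.03 with DMSO (rise 2.22, SE 0.12, adjusted p = 5.95e-16). ILMN_1813314 had 11.97, 11.74, 11.55 and 11.34 with SAHA, against 8.58, 8.8, 8.96 and 8.76 with DMSO (rise 2.88, SE 0.18, adjusted p = 1.85e-14). Both probes were detected on all DMSO arrays, and neither had groups that overlapped.

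Further H2B genes started from background. HIST1H2BF had 7.84, 7.33, 7.11 and 7.4 with SAHA, against 4.97, 4.93, 5.24 and 5.17 with DMSO, with no DMSO array detected, a rise of at least 4.23-fold (fitted 2.34, adjusted p = 2e-13). HIST2H2BF had 7.44, 7.51, 6.71 and 6.83 with SAHA, against 4.92, 4.61, 4.92 and 4.89 with DMSO, a rise of at least 3.44-fold (fitted 2.28, adjusted p = 4.99e-14). HIST1H2BE and HIST1H2BC, also undetected with DMSO, rose at least 2.91-fold and 2.56-fold. Smaller rises were called for HIST1H2BJ (0.77), HIST1H2BM (1.00) and HIST3H2BB (1.02), of which the last had groups that overlapped. HIST1H2BH went the other way, with 6.73, 6.65, 6.66 and 6.81 with SAHA, against 7.35, 7.21, 7.51 and 7.52 with DMSO, and fell by 0.69 (SE 0.14, adjusted p = 0.000128). It was the only H2B probe called lower here, and its groups did not overlap.

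All 8 tested probes of H3, which with H4 forms the core of the nucleosome, were called higher. HIST1H3B and HIST2H3C among them met the detection limit only through the Huh7 SAHA arrays. HIST1H3H had 9.38, 9.27, 8.54 and 8.87 with SAHA, against 5.52, 4.86, 4.83 and 5.25 with DMSO, where 1 of 4 arrays detected it (rise 3.90, SE 0.19, adjusted p = 3.07e-17). HIST1H3D had 8.71, 8.35, 8.51 and 8.66 with SAHA, against 5.64, 6.04, 5.95 and 5.58 with DMSO (rise 2.76, SE 0.22, adjusted p = 2.06e-12). HIST1H3F had 8.1, 8.09, 7.65 and 7.66 with SAHA, against 5.38, 6.29, 5.23 and 5.4 with DMSO (rise 2.30, SE 0.22, adjusted p = 2.45e-10). Smaller rises were found for HIST1H3A (0.86), HIST1H3C (0.77) and HIST1H3G (0.38), and HIST2H3C and HIST1H3B, undetected with DMSO, rose at least 1.25-fold and 1.15-fold. The groups of HIST1H3G and HIST2H3C overlapped. The call of HIST1H3G (adjusted p = 0.043) was lost with no background correction, with no detection limit, in the authors' normalized table and without any one of 5 of the 8 arrays.

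H4 was split. HIST1H4H had 8.72, 8.99, 8.06 and 8.42 with SAHA, against 4.99, 4.88, 4.91 and 5.23 with DMSO, where no array detected it, a rise of at least 9.25-fold (fitted 3.55, SE 0.19, adjusted p = 1.38e-16). HIST2H4A had 9.49, 9.48, 9.15 and 9.04 with SAHA, against 6, 5.87, 6.26 and 6.03 with DMSO (rise 3.25, SE 0.19, adjusted p = 1.35e-15). HIST1H4E rose by 1.71 and HIST1H4B, undetected with DMSO, at least 1.29-fold. HIST1H4C had 12.78, 13.1, 13 and 12.85 with SAHA, against 13.7, 14.42, 14.17 and 14.57 with DMSO. It fell by 1.28 (SE 0.17, adjusted p = 6.93e-08) with no overlap, against the direction of the 4 H4 probes called higher.

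**Figure D2:**
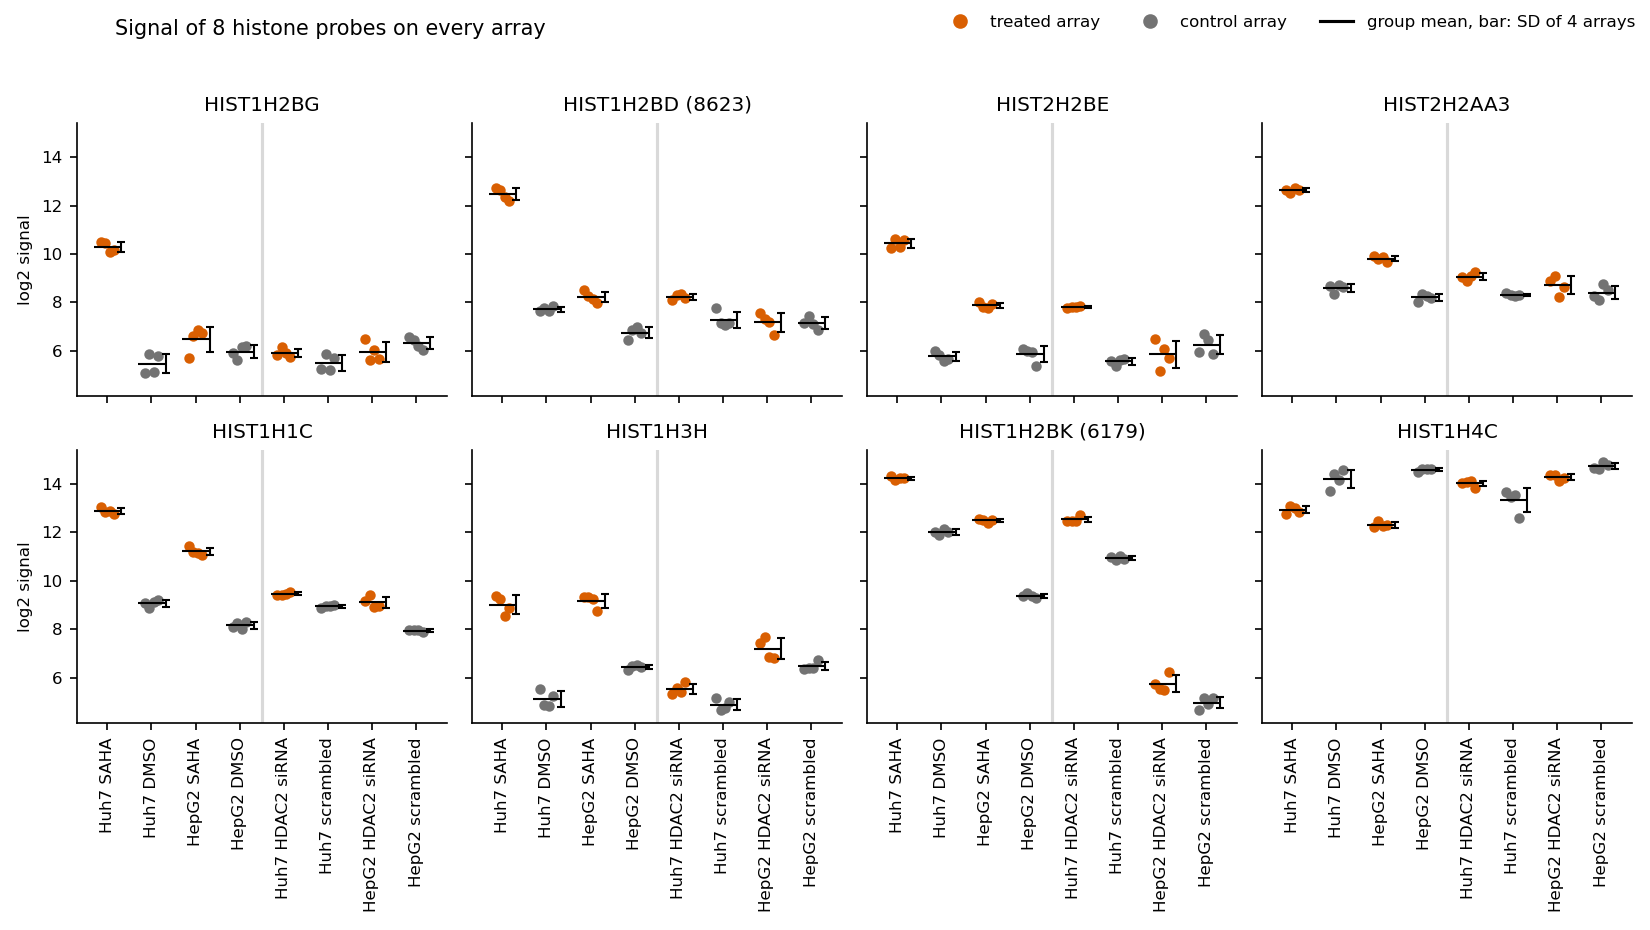
Log2 signal (y axis) of 8 histone probes on each of the 32 arrays (points), by group (x axis, treated groups left of their controls); the line is the group mean and the bar its SD over 4 arrays. HIST1H2BG stands at 10.08 to 10.51 on the Huh7 SAHA arrays and at 5.1 to 5.86 with DMSO, HIST1H4C is lower with SAHA in both lines, and HIST1H2BK is at 4.66 to 5.17 on the HepG2 scrambled arrays, against 9.29 to 9.5 with DMSO.

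In HepG2, SAHA raised fewer histone probes and lowered more. Of 39 probes 17 were called higher and 5 lower, against 25.1% and 27% of all tested probes, and 17 passed in neither direction. Some of these last 17, HIST2H2BF and HIST3H2A among them, were detected on no HepG2 SAHA or DMSO array. At least 4-fold rises were found for 8 probes and a fall of that size for 1, against 2.64% and 1.58% of all probes. The median difference was 0.33 (all tested probes -0.03), or 0.11 with no background correction and 0.5 in the authors' normalized table, and the groups did not overlap for 20 probes, against 50% of all. With no detection limit the counts over 65 probes were 17 higher and 5 lower, and the share of all probes was not counted. By type, 1 of 2 H1, 6 of 9 H2A, 6 of 14 H2B, 2 of 8 H3 and 2 of 6 H4 probes were called higher.

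HIST1H2BK rose most in HepG2. Its probe ILMN_1813314 had 9.56, 9.36, 9.49 and 9.16 with SAHA, against 6.38, 6.57, 5.47 and 5.91 with DMSO (rise 3.31, SE 0.18, adjusted p = 7.46e-16). ILMN_1796179 had 12.55, 12.52, 12.41 and 12.53 with SAHA, against 9.39, 9.5, 9.36 and 9.29 with DMSO (rise 3.12, SE 0.12, adjusted p = 1.65e-19). Both probes thus rose by a like amount. The tested HIST1H2BD probes did not: ILMN_1651496 had 9.05, 9.25, 9.04 and 8.69 with SAHA, against 5.96, 6.14, 5.56 and 6.28 with DMSO (rise 3.02, SE 0.22), and ILMN_1758623 had 8.5, 8.26, 8.14 and 7.99 with SAHA, against 6.45, 6.88, 6.98 and 6.73 with DMSO (rise 1.46, SE 0.17). Both rises of HIST1H2BD passed, and the probes disagreed in size. HIST2H2BE had 8.01, 7.82, 7.77 and 7.93 with SAHA, against 6.09, 6.01, 5.97 and 5.37 with DMSO (rise 2.02, SE 0.19, adjusted p = 2.3e-10).

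Outside H2B, HIST1H1C again rose far, with 11.43, 11.2, 11.15 and 11.08 with SAHA, against 8.11, 8.27, 8 and 8.3 with DMSO (rise 3.05, SE 0.10, adjusted p = 4.16e-21). HIST1H3H had 9.33, 9.34, 9.24 and 8.74 with SAHA, against 6.32, 6.5, 6.54 and 6.43 with DMSO (rise 2.72, SE 0.19, adjusted p = 2.26e-13). HIST1H3F had 8.09, 7.76, 8.21 and 7.88 with SAHA, against 5.76, 5.62, 5.33 and 6.69 with DMSO (rise 2.13, SE 0.22, adjusted p = 1.52e-09). None of these groups overlapped. HIST1H4H had 7.52, 7.58, 7.1 and 7.22 with SAHA, against 5.62, 4.96, 4.81 and 5.01 with DMSO, where 1 array detected it (rise 2.25, SE 0.19, adjusted p = 8e-12). The largest H2A rises were those of HIST1H2AM (1.93), HIST1H2AC (1.71), HIST2H2AA3 (1.60) and HIST1H2AE, at least 1.69-fold from an undetected DMSO level.

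The falls in HepG2 were led by HIST1H4C. It had 12.22, 12.49, 12.25 and 12.32 with SAHA, against 14.5, 14.62, 14.62 and 14.64 with DMSO, and fell by 2.28 (SE 0.17, adjusted p = 4.86e-13), or 4.84-fold. HIST1H3C had 5.83, 5.62, 5.18 and 5.88 with SAHA, against 6.96, 6.81, 7.21 and 7.13 with DMSO, and fell by 1.40 (SE 0.19, adjusted p = 2.01e-07). These groups were apart. HIST1H4J fell by 0.85 (adjusted p = 0.00199), a call lost in the authors' normalized table (adjusted p = 0.108 by limma), HIST1H2AB at least 1.36-fold to a level that no SAHA array detected, and HIST1H2BF, detected on 2 of 4 DMSO arrays and no SAHA array, at least 1.1-fold. The rises of HIST1H2AI (0.48, adjusted p = 0.0328) and HIST2H2AB (fitted 0.37, adjusted p = 0.0353) had overlapping groups, and each was lost without any one of several single arrays. HIST2H2AB was detected on no HepG2 DMSO array, and its SAHA mean of 5.23 was near background. Both calls were lost with no background correction. That of HIST1H2AI was also lost with each line by itself, in the authors' normalized table and with the replicate number as a block.

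Whether the lines differed in their change with SAHA was tested directly, as the change in HepG2 minus that in Huh7. Of 39 histone probes 29 were called lower by this contrast and 2 higher, against 26% and 22.8% of all tested probes. The median was -1.18. The 39 include the 6 probes that met the detection limit only through the Huh7 SAHA arrays, so these counts are descriptions. Of the 7 probes detected on all 32 arrays, 6 were called lower and 0 higher, with a median of -1.56. The share of all such probes called was not counted. Of the 29, 10 were called higher with SAHA in both lines, 14 were called higher in Huh7 and in neither direction in HepG2, and 2, HIST1H2BF and HIST1H3C, were called higher in Huh7 and lower in HepG2. The others were HIST1H4C, HIST1H2AB and HIST1H4J. Among the 14, HIST1H2BE, HIST1H3B, HIST1H4B, HIST2H2BF, HIST3H2A and HIST3H2BB were detected on no HepG2 SAHA or DMSO array. For these probes no change in HepG2 could be read. The difference was largest for HIST1H2BG, at -4.32 (SE 0.32, adjusted p = 1.07e-12). HIST1H2BG had 5.71, 6.61, 6.86 and 6.72 on the HepG2 SAHA arrays and 5.91, 5.62, 6.15 and 6.22 on the HepG2 DMSO arrays, groups that overlapped and differed by 0.50 (adjusted p = 0.0612). HIST1H2BD (ILMN_1758623) differed by -3.30 (SE 0.24, adjusted p = 9.63e-13).

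HIST2H2BE (-2.64), HIST2H2AC (-2.48) and HIST2H2AA3 (-2.43) also differed. HIST1H2BF, undetected with DMSO in Huh7 and with SAHA in HepG2, had a fitted difference of -2.93, and HIST3H2A one of -2.70; with groups at background such values have no place in an order. HIST2H2AC had 9.64, 9.29, 9.52 and 9.54 in HepG2 with SAHA, against 9.39, 9.65, 9.32 and 9.44 with DMSO, a difference of 0.05 (SE 0.14), with every array of both groups detected. Its call in Huh7 and its missing call in HepG2 thus came with a tested difference between the lines. HIST3H2A was detected on none of the HepG2 SAHA or DMSO arrays. The 2 probes called higher by the contrast were HIST1H2BK (ILMN_1796179), at 0.90 (SE 0.17, adjusted p = 7.36e-05), and HIST1H2BH, at 0.66 (adjusted p = 0.00742), which was detected on no HepG2 SAHA or DMSO array and lost the call in the authors' normalized table (adjusted p = 0.0984 by limma). The other HIST1H2BK probe was not called by this contrast.

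**Figure D3:**
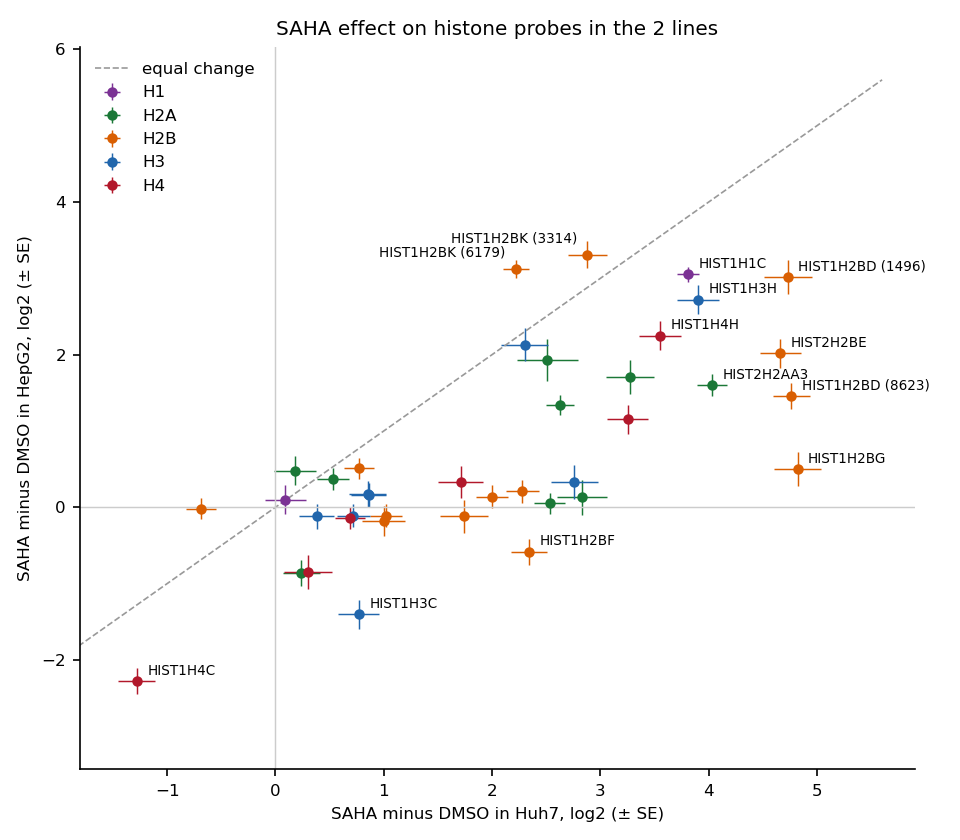
SAHA minus DMSO log2 difference in HepG2 (y axis) against that in Huh7 (x axis) for each of the 39 tested histone probes (points, colour by type, bars ± SE); the dashed line marks equal change. Most points lie under the line, HIST1H2BG at 4.82 in Huh7 and 0.50 in HepG2, while both HIST1H2BK probes lie above it. The 39 include 6 probes that met the detection limit only through the Huh7 SAHA arrays.

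The probes called higher with SAHA in both lines numbered 16, which is 48.5% of the 33 in Huh7 and 94.1% of the 17 in HepG2; 13.4% of all tested probes were called higher in both. They were HIST1H1C, HIST1H2AC, HIST1H2AE, HIST1H2AM, HIST2H2AA3, HIST2H2AB, both tested HIST1H2BD probes, HIST1H2BJ, both HIST1H2BK probes, HIST2H2BE, HIST1H3F, HIST1H3H, HIST1H4H and HIST2H4A. The exception among the HepG2 probes was HIST1H2AI. HIST1H4C was the probe called lower in both. HIST2H2AB, among the 16, was undetected with DMSO in both lines.

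The siRNA comparison asks how the same probes change with the siRNA against HDAC2. Whether this siRNA acted on other targets was not tested. In Huh7 16 of 39 were called higher and 2 lower with HDAC2 siRNA, against 21.9% and 20.7% of all tested probes. The median difference was 0.27 (all tested probes -0.01), or 0.1 with no background correction and 0.53 in the authors' normalized table, and 1 rise reached 4-fold (0.397% of all probes). The groups did not overlap for 22 probes, against 44% of all. With no detection limit 18 of 65 were called higher and 2 lower, and the share of all probes was not counted. H4 had 5 of 6 probes higher, H2B 6 of 14, H2A 3 of 9, H3 1 of 8 and H1 1 of 2. Among the 5 H4 probes, HIST1H4B and HIST1H4E were undetected with scrambled siRNA, and HIST1H4H was detected on 1 scrambled array.

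HIST2H2BE led with 7.79, 7.8, 7.81 and 7.86 on the HDAC2 siRNA arrays, against 5.6, 5.36, 5.64 and 5.68 on the scrambled arrays (rise 2.24, SE 0.19, adjusted p = 6.66e-11). The treated arrays were almost equal and far above the controls. HIST1H2BK (ILMN_1813314) had 10.02, 9.8, 10.13 and 9.75 with HDAC2 siRNA, against 8.36, 7.64, 8.03 and 7.98 with scrambled siRNA (rise 1.92, SE 0.18, adjusted p = 5.54e-10), and its other probe rose by 1.59. HIST1H2AC had 8.65, 8.62, 8.76 and 8.65 with HDAC2 siRNA, against 7.4, 6.43, 6.59 and 6.75 with scrambled siRNA (rise 1.88, SE 0.22, adjusted p = 2.51e-08). The same 3 genes were also called higher with SAHA in Huh7. HIST1H1C rose by 0.51, HIST1H3H, undetected with scrambled siRNA, at least 1.15-fold, HIST2H4A by 1.10, HIST1H4H by 1.08, HIST3H2A by 0.89 and HIST2H2AA3 by 0.76. The call of HIST1H3H was lost with no background correction (adjusted p = 0.0819 by limma), and those of HIST3H2A (adjusted p = 0.0871) and HIST1H2BD (ILMN_1651496, 0.74; adjusted p = 0.333) in the authors' normalized table.

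HIST1H4C rose by 0.69 (SE 0.17, adjusted p = 0.000994) with HDAC2 siRNA in Huh7, with 14.05, 14.07, 14.12 and 13.85, against 13.69, 13.47, 13.56 and 12.59 with scrambled siRNA. Every treated array was above every control, and scrambled array 4 was the lowest; without it the rise was 0.45 (adjusted p = 0.00936 by limma). HIST1H2BH fell by 0.88 (SE 0.14, adjusted p = 7.36e-06), with 5.99, 5.53, 6.06 and 5.99 with HDAC2 siRNA, against 7.07, 6.69, 6.73 and 6.6 with scrambled siRNA. HIST1H3C fell by 0.58 (adjusted p = 0.0126), a call lost without HDAC2 siRNA array 2 or scrambled array 3, either of which left 1 probe called lower. HIST2H2AC and HIST1H2BG gave differences of -0.12 (SE 0.14) and 0.40 (SE 0.22) that did not pass.

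In HepG2, HDAC2 siRNA moved few histone probes. Of 39, 5 were called higher and 4 lower, against 17.2% and 16.6% of all tested probes. The median difference was 0.07, no change reached 4-fold (0.0682% of all probes did so upward and 0.143% downward), and the groups did not overlap for 7 probes, against 24.8% of all. HIST1H1C had 9.18, 9.42, 8.92 and 8.97 with HDAC2 siRNA, against 7.98, 7.96, 7.99 and 7.88 with scrambled siRNA (rise 1.17, SE 0.10, adjusted p = 3.08e-10). HIST1H4H had 6.74, 6.78, 6.63 and 6.21 with HDAC2 siRNA, against 6.02, 5.85, 5.27 and 5.83 with scrambled siRNA (rise 0.85, SE 0.19, adjusted p = 0.000634). In both, every treated array was above every control.

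HIST1H2BK (ILMN_1796179) had 5.73, 5.54, 5.49 and 6.26 with HDAC2 siRNA, against 4.66, 5.17, 4.92 and 5.16 with scrambled siRNA, where no array detected it, a rise of at least 1.23-fold (fitted 0.78, adjusted p = 1.02e-05). HIST1H2BC (0.75) and HIST1H3H (0.73) were the other 2 called higher, and both calls were lost in the authors' normalized table (adjusted p = 0.0645 and 0.0826 by limma). HIST1H2BC had groups that overlapped, and its call was also lost without HDAC2 siRNA array 1 (0.57, adjusted p = 0.0506). The 4 probes called lower were HIST1H2BD (ILMN_1651496, -0.57, adjusted p = 0.0405), HIST1H4C (-0.46, adjusted p = 0.0334), HIST1H2BF (at least 1.11-fold, adjusted p = 0.0491) and HIST2H2AC (-0.42, adjusted p = 0.0166). The fall of HIST1H2BD was -0.21 (adjusted p = 0.346) without HDAC2 siRNA array 4, and the gene's other tested probe gave 0.04 (adjusted p = 0.878). With each array scaled to 1 median HIST1H4C gave -0.02 (adjusted p = 0.961 by limma). Without HDAC2 siRNA array 3 HIST2H2AC gave -0.28, and without array 2 HIST1H2BF gave a fitted -0.26, neither of which passed. Without scrambled array 3 no histone probe was called lower, without HDAC2 siRNA array 3 or array 4 there were 2, and without HDAC2 siRNA array 1 there were 6. HIST1H2AB, HIST1H2BG and HIST2H2BE gave differences of -0.39, -0.36 and -0.38 that did not pass.

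The interaction contrast for the siRNA, HepG2 effect minus Huh7 effect, called 12 histone probes lower and 2 higher, against 17.2% and 17% of all tested probes (median -0.23). HIST2H2BE differed by -2.63 (SE 0.28, adjusted p = 1.04e-08). In HepG2 it had 6.49, 5.18, 6.09 and 5.7 with HDAC2 siRNA, against 5.95, 6.7, 6.47 and 5.89 with scrambled siRNA. HIST1H2BK (ILMN_1813314) differed by -1.74 (SE 0.26, adjusted p = 4.44e-06), and was detected on none of the HepG2 siRNA or scrambled arrays. HIST1H2AC differed by -1.76 and HIST1H4C by -1.15, which was -0.48 (adjusted p = 0.122 by limma) with each array scaled to 1 median. HIST1H2BH (1.09) and HIST1H1C (0.66, adjusted p = 0.000674) were the 2 called higher.

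In Huh7, 15 histone probes were called higher with SAHA and with HDAC2 siRNA, which is 45.5% of the 33 and 93.8% of the 16; 8.55% of all tested probes were called higher in both. The test of the difference was SAHA effect minus siRNA effect. It called 30 probes higher and 1 lower in Huh7, against 26.5% and 24.8% of all (median 1.35). The tested probes include the 6 that met the detection limit only through the Huh7 SAHA arrays. HIST1H2BG (4.42), both tested HIST1H2BD probes (3.99 and 3.81) and HIST1H1C (3.30) were the most different. HIST1H4C was the 1 called lower, at -1.98 (SE 0.24, adjusted p = 2.12e-08), since it fell with SAHA and rose with the siRNA. In HepG2 the contrast called 17 probes higher and 4 lower, against 22.5% and 23.5% of all (median 0.39). HIST1H2BD (ILMN_1651496, 3.59) and HIST1H2BK (ILMN_1813314, 3.13) were among the highest and HIST1H4C (-1.82) was the lowest. This HIST1H2BK probe was detected on none of the HepG2 siRNA or scrambled arrays. The 3.59 includes a siRNA change of -0.57, a call lost without HDAC2 siRNA array 4. The other tested HIST1H2BD probe averaged 8.22 with SAHA and 6.76 with DMSO, and 7.18 with HDAC2 siRNA and 7.14 with scrambled siRNA. The other HIST1H2BK probe, undetected with scrambled siRNA, rose by 3.12 with SAHA and by a fitted 0.78 with HDAC2 siRNA. SAHA and the siRNA were run in separate subsets, and these contrasts set each effect, taken within its own subset, against the other.

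The control groups set the levels from which these changes start. With DMSO, 4 histone probes were called higher and 12 lower in HepG2 than in Huh7, against 29.3% and 28.3% of all tested probes. The largest differences were those of HIST1H2BD (ILMN_1651496, -2.69), HIST1H2BK (-2.69 and -2.63), HIST1H2BH (at least 3.99-fold) and HIST3H2A (at least 3.55-fold), all lower in HepG2, where no DMSO array detected the last 2. The other tested HIST1H2BD probe, ILMN_1758623, lay closer together, with DMSO means of 6.76 in HepG2 and 7.72 in Huh7. HIST1H4J (at least 2.56-fold) and HIST1H3H (1.33) were higher in HepG2. Without Huh7 DMSO array 2 there were 7 called higher in place of 4. With scrambled siRNA, 13 were called higher and 7 lower in HepG2, against 30.5% and 33.5% of all. HIST1H2BK was again lower in HepG2, where neither probe was detected, at least 45.3-fold and 5.88-fold.

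The 2 kinds of control differed for HIST1H2BK in HepG2. ILMN_1796179 had 4.66, 5.17, 4.92 and 5.16 with scrambled siRNA, against 9.39, 9.5, 9.36 and 9.29 with DMSO, and was at least 15.3-fold lower with scrambled siRNA, which no array detected. ILMN_1813314 had 4.65, 4.78, 4.76 and 4.7 with scrambled siRNA, against 6.38, 6.57, 5.47 and 5.91 with DMSO, and was at least 1.55-fold lower, again with no scrambled array detected. In Huh7, where every control array detected both probes, they differed by -1.07 and -0.77 in the same direction. Kind of control and subset cannot be told apart, and the levels of the 2 kinds of control were not tested against each other. HIST1H4J, detected on 1 of 4 scrambled arrays, differed by -1.47 and HIST1H2AC by 1.13 between these HepG2 controls, and the means of the other 35 tested histone probes by less than 1.

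Of the divergent pairs of an H2A and an H2B gene, 4 had both members tested. They are 4 of 10 such pairs among the RefSeq windows, with starts 215 to 248 bases apart, and were looked at after the values were seen. HIST2H2AC and HIST2H2BE, whose windows share 265 bases, rose by 2.53 and 4.66 with SAHA in Huh7. In HepG2 HIST2H2BE rose by 2.02 and HIST2H2AC gave 0.05, and with HDAC2 siRNA in Huh7 HIST2H2BE rose by 2.24 and HIST2H2AC gave -0.12. HIST1H2AE rose at least 4.63-fold and HIST1H2BG by 4.82 on the log2 scale with SAHA in Huh7, while in HepG2 HIST1H2AE rose at least 1.69-fold and HIST1H2BG gave 0.50. HIST1H2AC rose by 3.27 and HIST1H2BC at least 2.56-fold with SAHA in Huh7, and in HepG2 HIST1H2AC rose by 1.71 and HIST1H2BC gave -0.12. HIST1H2BC was near background in HepG2, with means of 5.23 with SAHA and 5.35 with DMSO and 2 of 4 arrays detected in each. With HDAC2 siRNA in Huh7 both were called higher, HIST1H2AC by 1.88 and HIST1H2BC, undetected with scrambled siRNA, by a fitted 0.69. HIST3H2A and HIST3H2BB rose by 2.83 and 1.02 in Huh7 and passed in neither direction in HepG2, where neither was detected with SAHA or DMSO. With HDAC2 siRNA in Huh7, HIST3H2A rose by 0.89 and HIST3H2BB, undetected in that comparison, gave 0.03. There HIST1H2AE (0.16, undetected) and HIST1H2BG (0.4) did not pass. The differences between the members of a pair were not tested.

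**Figure D4:**
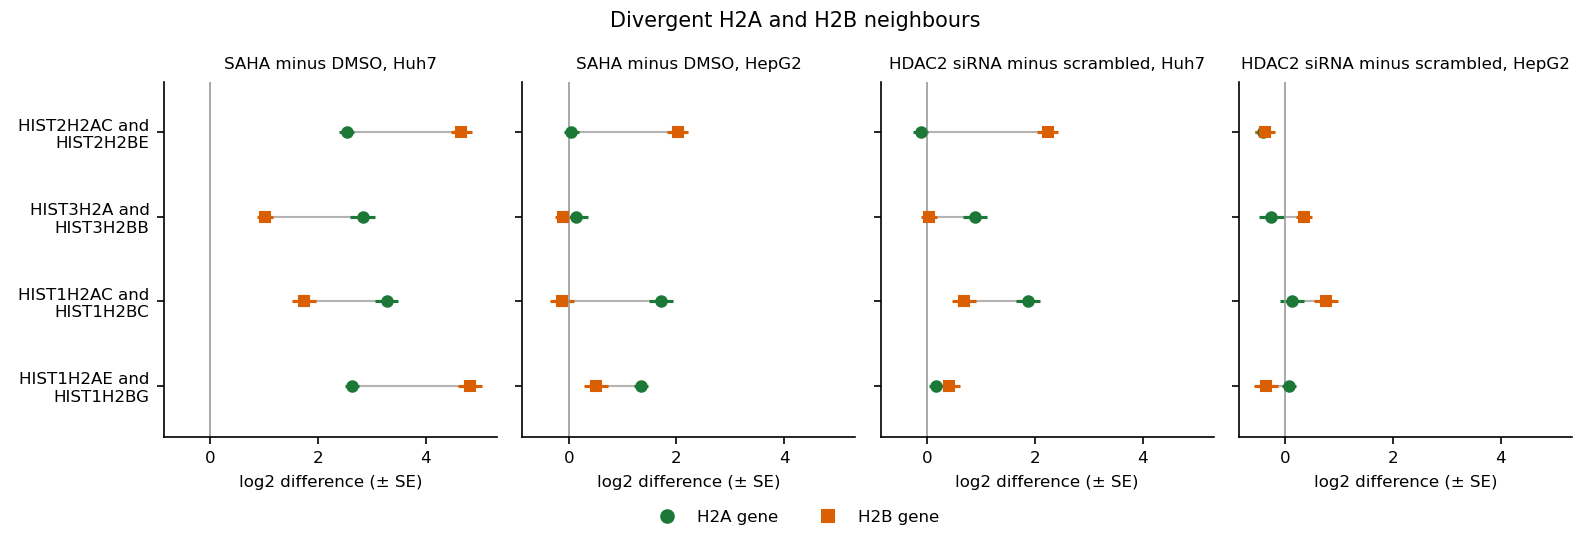
Log2 difference (x axis, ± SE) of the H2A gene (circle) and the H2B gene (square) of 4 divergent neighbours (y axis) in the 4 treatment comparisons; points of genes undetected in a group, such as HIST1H2AE with DMSO, are fitted values. HIST2H2AC and HIST2H2BE stand at 2.53 and 4.66 with SAHA in Huh7, and at -0.12 and 2.24 with HDAC2 siRNA in Huh7.

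S phase and replication genes fell with SAHA. Of all tested probes, 28.4% were called lower with SAHA in Huh7 and 27% in HepG2, and 29.1% and 25.1% higher. Of 32 S phase and replication genes tested, 29 were called lower and none higher with SAHA in Huh7 (median -1.44), led by TYMS (-3.53), the thymidylate synthase gene, MCM5 (-3.17) and MCM2 (-2.71), subunits of the replicative helicase, and CDT1 (-3.10), a loader of that helicase. In HepG2 all 32 were called lower (median -2.66), with CDC45L at -4.38 and MCM4 at -3.54. With HDAC2 siRNA 21 were called lower and 3 higher in Huh7 (median -0.57), against 20.7% and 21.9% of all tested probes. In HepG2 10 were called lower and 1 higher (median -0.08), against 16.6% and 17.2%. The share of cells in S phase was not measured, and its part in the histone changes was not tested. HIST1H4C was called lower with SAHA in both lines, as most of these genes were, and was called higher (0.69) with HDAC2 siRNA in Huh7, where most were called lower. In these cultures, fewer cells expressing a gene and less RNA per cell cannot be told apart.

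Histone chaperones carry new histones to DNA. With SAHA 9 of 18 were lower and 3 higher in Huh7 (median -0.46), against 28.4% and 29.1% of all tested probes. In HepG2 16 were lower and 1 higher (median -1.10), against 27% and 25.1%. HJURP, the chaperone of the centromeric H3 variant, fell by 2.17 in Huh7 and fell by 3.47 in HepG2, and CHAF1B, a subunit of the CAF-1 complex, gave -1.69 and -2.93. HAT1, which acetylates new H4, rose by 0.85 in Huh7 and fell by 1.55 in HepG2. With HDAC2 siRNA 5 were lower and 2 higher in Huh7, against 20.7% and 21.9% of all tested probes. In HepG2 3 were lower and 3 higher, against 16.6% and 17.2%.

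Of 15 genes of histone mRNA 3′ end formation and turnover, 5 were called higher and 5 lower with SAHA in Huh7 (median -0.23). The shares of all tested probes were 29.1% and 28.4%. In HepG2 2 were called higher and 8 lower (median -0.33), against 25.1% and 27%. SLBP, which binds the stem-loop, fell by 0.54 (SE 0.14, adjusted p = 0.00156) in Huh7 and by 0.98 (adjusted p = 6.83e-07) in HepG2. CSTF2T, a cleavage factor gene, rose by 1.02 in Huh7 and by 0.34 in HepG2. With HDAC2 siRNA 6 were higher and 5 lower in Huh7, against 21.9% and 20.7% of all tested probes, and SLBP fell by 0.47. In HepG2 4 were higher and 2 lower, against 17.2% and 16.6%.

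Of 10 genes of histone gene transcription, 1 was called higher and 5 lower with SAHA in Huh7, against 29.1% and 28.4% of all probes. In HepG2 none was called higher and 5 lower, against 25.1% and 27%. NPAT, the coactivator of histone genes, rose by 0.53 (adjusted p = 0.0225) in Huh7 with groups that overlapped and fell by 0.68 (adjusted p = 0.00488) in HepG2. TFDP1, the partner of E2F factors, gave -0.98 and -1.31 in Huh7 and HepG2, and COIL, the gene of coilin, gave -0.89 and -0.82, all called lower. POU2F1, the gene of the factor that binds the octamer, gave -0.36 and -0.17, which did not pass. With HDAC2 siRNA 1 was higher and 1 lower in Huh7, against 21.9% and 20.7% of all tested probes. In HepG2 1 was higher and 2 lower, against 17.2% and 16.6%.

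The replacement variants, histones of genes other than the clustered ones, were mixed. With SAHA 5 of 11 were called higher and 4 lower in Huh7, against 29.1% and 28.4% of all tested probes. In HepG2 2 were called higher and 6 lower, against 25.1% and 27%. H2AFJ rose by 1.82 in Huh7 and 1.27 in HepG2, and H1F0, the gene of a linker histone of non-dividing cells, by 1.27 and 0.34. CENPA, the centromeric H3 variant, gave -1.38 and -4.20, and H2AFX gave -1.46 and -2.96, all called lower. H2AFY2 fell by 4.67 in Huh7, the largest change among all these list genes in that comparison. With HDAC2 siRNA 5 were higher and 1 lower in Huh7, against 21.9% and 20.7% of all tested probes. In HepG2 1 was higher and 5 lower, against 17.2% and 16.6%.

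**Figure D5:**
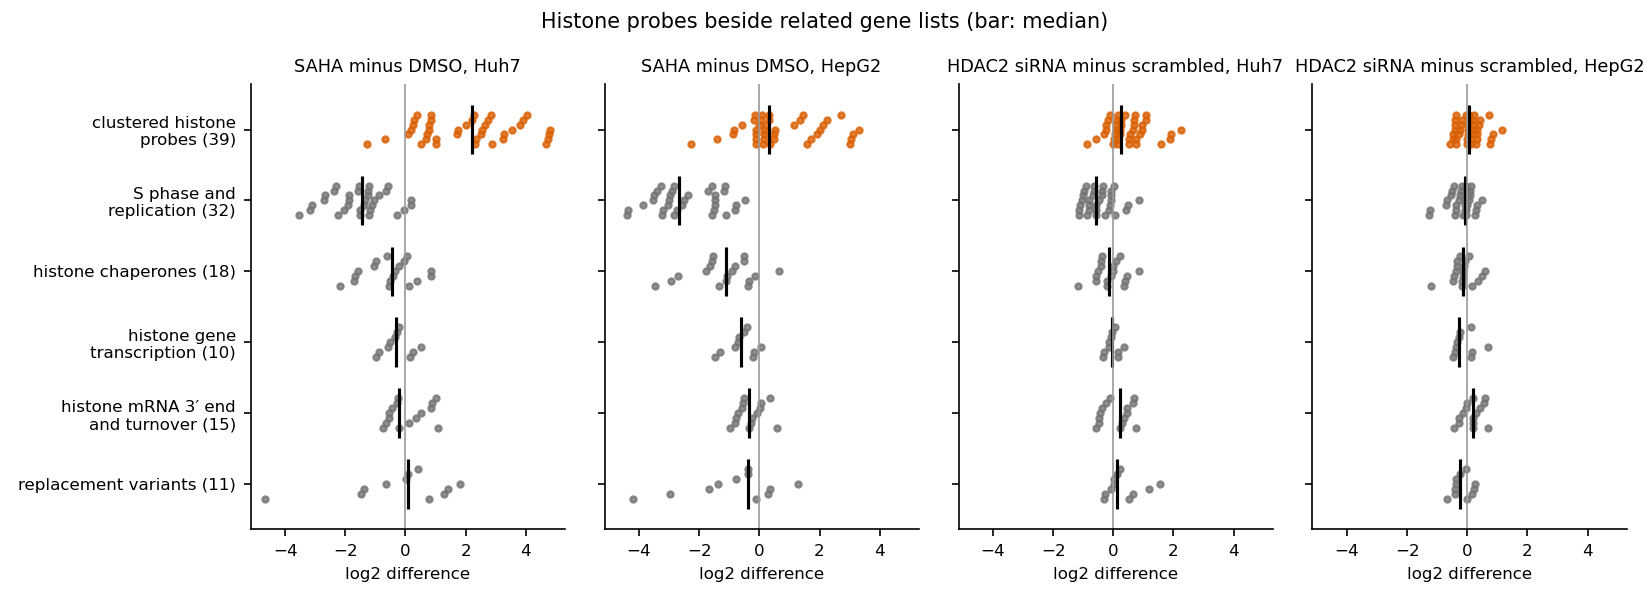
Log2 difference (x axis) of each tested clustered histone probe (top row) and of each gene of 5 related lists (other rows; points; bar: median; number tested in brackets) in the 4 treatment comparisons. With SAHA the S phase and replication genes have medians of -1.44 in Huh7 and -2.66 in HepG2, against 2.22 and 0.33 for the histone probes.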

How the data were processed

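Total RNA of 2 human cell lines was measured on 32 Illumina bead arrays. The deposited table holds 1 probe signal intensity per array, not normalized, with a detection p-value beside it, per the file headers; the scanner software was GenomeStudio 2011.1, per the submitters' processing notes. A second deposited table holds the authors' normalized intensity. Groups came from the sample titles. Signals were background-corrected by normexp with parameters inferred from the detection p-values, an offset of 16 was added, and all arrays received quantile normalization and a log2 transform. Probes with a detection p-value under 0.05 on at least 4 arrays were kept. Differences were tested in limma 3.58.1 (R 4.3.3), with 1 model of 8 groups, 10 contrasts, 24 residual and 5.72 prior degrees of freedom, and Benjamini-Hochberg adjustment over 16121 probes; the code was tested on simulated data. The number of arrays limits the precision.

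The members and the gene lists were chosen with earlier results of these data known. The rule for names gave all array values to probes that passed with at least 4-fold change with SAHA, to the 3 largest changes of each siRNA comparison and to the 2 lowest adjusted p of each line difference; the largest rise and fall of each type, all probes of genes with several, and up to 4 list genes of lowest adjusted p per SAHA comparison were named too. Array values of HIST1H2BH and HIST1H3C, and NPAT, HAT1, POU2F1, and values of SLBP, CSTF2T, CENPA, H2AFX and H1F0 beyond that rule were added after their values were seen. A list gene was read from its detected probe of highest mean. Alternatives were no background correction, scaling to 1 median, each line by itself, the authors' normalized table, no detection limit, detection on all 32 arrays, 1 probe per symbol, the replicate number as a block, and each array left out in turn. Probe sequences were not used here, and neither were proteins.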

Additional observations from a re-analysis of the deposited data

Results flagged for a closer look

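Of 184 groups of 4 arrays, over the 23 probes whose array values are given, 13 had an array that stood apart from the other 3 by Dixon's criterion; chance gives about 5% of groups. With SAHA in HepG2, HIST1H3H was at 8.74 on array 4, against 9.24 to 9.34 on the others. With HDAC2 siRNA in Huh7, HIST1H2BK (ILMN_1796179) was at 12.71 on array 4 (others 12.47 to 12.49), HIST1H2BH at 5.53 on array 2 (others 5.99 to 6.06), HIST1H3D at 5.6 on array 3 (others 6.32 to 6.45) and HIST2H4A at 7.21 on array 2 (others 6.78 to 6.84). With DMSO in Huh7, HIST1H3F was at 6.29 on array 2 (others 5.23 to 5.4) and HIST2H2BF, detected on none of the 4, at 4.61 on array 2 (others 4.89 to 4.92). With DMSO in HepG2, HIST1H3D was at 5.11 on array 1 (others 5.82 to 5.92), HIST2H2BE at 5.37 on array 4 (others 5.97 to 6.09) and HIST1H4C at 14.5 on array 1 (others 14.62 to 14.64). With scrambled siRNA, HIST1H2BD (ILMN_1758623) was at 7.78 on Huh7 array 1 (others 7.07 to 7.17), HIST2H2AC at 8.59 on Huh7 array 2 (others 8.79 to 8.81) and HIST1H3H at 6.73 on HepG2 array 4 (others 6.38 to 6.42).

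The tested difference between the lines, HepG2 effect minus Huh7 effect, was called for SAHA in 29 probes lower and 2 higher. The shares of all tested probes were 26% and 22.8%. The probes with array values had fitted differences, not measured on both sides where a group was at background, of -0.77 for HIST1H1C, -1.56 for HIST1H2AC, -1.29 for HIST1H2AE, -1.71 and -3.3 for HIST1H2BD, -2.93 for HIST1H2BF, -4.32 for HIST1H2BG, 0.66 for HIST1H2BH and 0.9 for HIST1H2BK (ILMN_1796179). They were -2.17 for HIST1H3C, -2.43 for HIST1H3D, -1.18 for HIST1H3H, -1.29 for HIST1H4H and -0.99 for HIST1H4C. In the HIST2 and HIST3 clusters they were -2.43 for HIST2H2AA3, -2.48 for HIST2H2AC, -2.64 for HIST2H2BE, -2.08 for HIST2H2BF, -2.1 for HIST2H4A and -2.7 for HIST3H2A. For the siRNA, 12 probes were lower and 2 higher, against 17.2% and 17% of all tested probes. Fitted differences were -2.63 for HIST2H2BE, -1.74 and -0.81 for HIST1H2BK, -1.76 for HIST1H2AC, -1.15 for HIST1H4C, 1.09 for HIST1H2BH and 0.66 for HIST1H1C.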

How the results depend on the processing

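Among the 41 single-probe results that the naming rule chose, of large size or low p, 648 of 649 alternative values kept direction and call; the exception was the line difference of HIST1H2BK (ILMN_1813314) for the siRNA, -1.93 with an adjusted p of 0.0632 by limma in the authors' normalized table. Of all 84 calls of histone probes in the 4 treatment comparisons, 13 were lost under at least 1 alternative that kept all arrays, 9 without at least 1 single array and 15 under either kind. Besides those named with the results, HIST1H2BJ lost its call with SAHA in HepG2 (0.13, adjusted p = 0.493) when each array was scaled to 1 median. Of 564 alternative counts and medians, 504 stayed within the limits set and 60 moved; the causes were not tested except where fewer probes were counted.
With no background correction the median of the histone probes was 0.89 for SAHA in Huh7, 0.11 for SAHA in HepG2, 0.1 for the siRNA in Huh7, -0.55 for the line difference of SAHA, 0.66 and 0.16 for SAHA minus siRNA in Huh7 and HepG2, and 0.07 for HepG2 against Huh7 with scrambled siRNA. Scaling each array to 1 median put the median of all probes at -0.129 with SAHA in Huh7 and -0.174 in HepG2, gave a histone median of 1.96 with SAHA in Huh7, and called 7 probes higher in HepG2 than in Huh7 with DMSO. With no detection limit, over 65 probes, the medians were 0.53, 0.07 and 0.12 for SAHA in Huh7, SAHA in HepG2 and the siRNA in Huh7, -0.41 and -0.04 for the line differences of SAHA and the siRNA, 0.39 and 0.06 for SAHA minus siRNA in Huh7 and HepG2, and 0.11 for HepG2 against Huh7 with scrambled siRNA; 2 probes were called lower with the siRNA in HepG2. In the authors' normalized table the medians were 0.5 for SAHA in HepG2, 0.53 for the siRNA in Huh7, -1.66 and -0.45 for the line differences of SAHA and the siRNA, 1 probe was called higher by the line difference of SAHA, and 2 lower with the siRNA in HepG2, as with each line by itself (2).

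Over the 7 probes detected on all 32 arrays, counts are lower because fewer probes are counted: 6 higher and 1 lower (median 3.27) with SAHA in Huh7, 5 and 1 (1.46) with SAHA in HepG2, 5 and 0 (0.69) with the siRNA in Huh7, and 1 and 2 with the siRNA in HepG2. They were 0 and 6 (-1.56) and 1 and 4 (-0.45) for the line differences of SAHA and the siRNA, 6 higher (2.65) and 6 and 1 (1.29) for SAHA minus siRNA in Huh7 and HepG2, and 2 and 4 (-0.39) and 4 and 1 (0.35) for HepG2 against Huh7 with DMSO and scrambled siRNA. Shares over all probes detected on all 32 arrays were not counted. Leaving out single arrays gave 0 to 6 probes called lower with the siRNA in HepG2, 1 to 2 with the siRNA in Huh7, and 4 to 7 called higher in HepG2 than in Huh7 with DMSO. Replicate numbers did not pair the arrays, as at most 1 of 4 same-numbered pairs correlated over 0.1 in any comparison and at most 1 of 4 arrays correlated best with its own number. With the number as a block, 33 probes were called higher and 2 lower with SAHA in Huh7 (median 2.22), and 7 higher in HepG2 than in Huh7 with DMSO in place of 4. Dim probes limit what can be read: fitted changes of probes undetected in a group depend on the background correction.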
